A study of Mus musculus with 16 samples.

Results

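The 10 genes described here were chosen by name for their place in the migration of newborn cortical neurons, and the rule that names them uses no measured value. The choice was made with earlier results of these data known. The genes are *Dcx*, *Pafah1b1* and *Ndel1*, which act on microtubules and dynein, the tubulins *Tubb3* and *Tuba1a*, the kinase *Cdk5* with its activator *Cdk5r1*, and the Reelin adaptor and receptors *Dab1*, *Vldlr* and *Lrp8*. They are 10 of 51912 genes listed in the deposited counts, and 9 of the 10 had reads. The tissue was cerebral cortex of mouse embryos at E15.5, and rRNA-depleted RNA was counted with unique molecular identifiers, which mark each original molecule. The 7 ctrl mice were 5 wild types and 2 heterozygotes, the 4 cKO mice carried a conditional deletion of *Knl1* (also called *Casc5*) driven by *hGFAP-Cre*, and the 4 dKO mice carried the *hGFAP-Cre* deletion of *Knl1* and *Trp53* together. The mice came from 4 litters and 3 batches and were of both sexes. All 4 dKO mice were in batch 3. Mouse S2 gave a pair of libraries, which were summed.

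A cortical neuron is born near the ventricle and climbs along radial glia to the cortical plate. Reelin, secreted by Cajal-Retzius cells at the surface, binds the receptors VLDLR and ApoER2 (encoded by *Lrp8*) and leads to tyrosine phosphorylation of DAB1, and loss of this pathway disturbs the layering of the cortex. LIS1 (encoded by *Pafah1b1*), NDEL1, doublecortin, the tubulins and CDK5 with p35 (encoded by *Cdk5r1*) move the nucleus and shape the leading process, and mutations of several of their genes cause lissencephaly or related malformations in people. *hGFAP-Cre* recombines in cortical progenitors and not in the lineages that make interneurons, so that a bulk sample also holds cells with the gene intact.

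None of the 9 genes with reads differed between genotype groups at a false discovery rate (FDR, adjusted over all 51912 listed genes) below 0.05. This held when either mutant group was set against ctrl and when cKO was set against dKO, in edgeR's likelihood ratio test and in every other setting tried. Before adjustment, 2 of the 9 had p below 0.05 in cKO versus ctrl, 0 in dKO versus ctrl and 1 in cKO versus dKO. *Dab1*, the adaptor of the Reelin receptors, differed between litters when genotype was held in the fit (FDR = 0.000379), in a test added after its values had been seen, and this call was lost without 1 ctrl mouse (FDR = 0.129). *Tubb3* was listed at 0 in all 16 libraries, and the position of its gene, described next, bears on that value.

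*Tubb3* encodes a beta tubulin that is used as a marker of neurons, and it is annotated at chr8:123411424-123422015 on the plus strand of GRCm38. It had a count of 0 in each of the 16 libraries. The gene lies wholly inside the span of *Gm20388*, a gene model on the same strand at chr8:119910841-124345722, and shares no exon with it. *Gm20388* covers 4435 kb, of which 3.95 kb is exonic, and it had 4788 counts over the 16 libraries. Of the 36 protein-coding genes inside that span and on its strand, 0 had a count, and these include the housekeeping genes *Rpl13* and *Cox4i1*. Of the 35 protein-coding genes inside it on the opposite strand, 34 had a count, the highest being *Ankrd11* with 18086. Over the whole annotation, 3 of 419 protein-coding genes inside a longer gene of the same strand had a count (0.716%), against 573 of 789 inside a longer gene of the opposite strand only (72.6%) and 16821 of 20662 that lay inside no other gene (81.4%). A 0 here is therefore shared by nearly all genes nested in this way, and no level of *Tubb3* could be read from these counts in any group. This check of nested genes was chosen after the 0 of *Tubb3* had been seen. None of the other 9 genes lay inside a longer gene of its own strand.

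**Figure D1:**
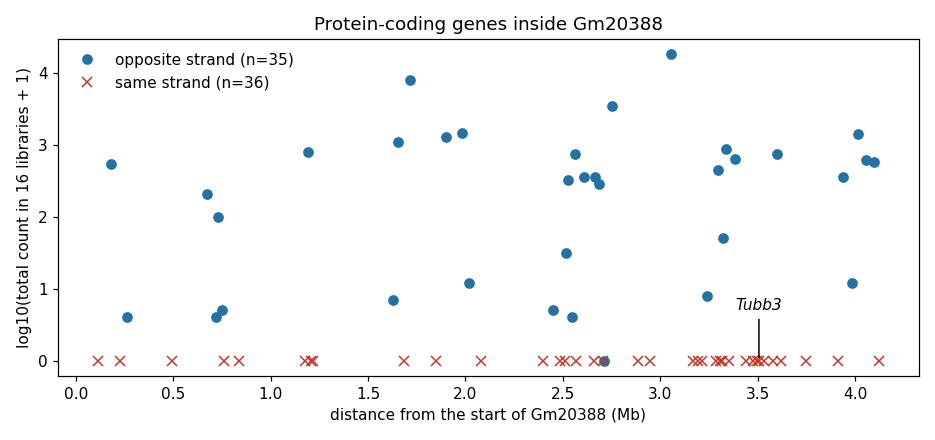
Protein-coding genes inside *Gm20388*, with the distance of each from the start of *Gm20388* in Mb on the x axis and log10 of its total count in 16 libraries plus 1 on the y axis. All 36 genes on the same strand (crosses), *Tubb3* among them, sit at 0, and 34 of the 35 genes on the opposite strand (dots) sit above it.

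Depth differed between the groups. Total counts per mouse ran from 399832 to 3266227 in ctrl, from 4178461 to 8800987 in cKO and from 552186 to 5396803 in dKO, so every cKO mouse was deeper than every ctrl mouse. A count of 3, taken as the floor of detection, was worth 0.341 to 7.50 CPM (counts scaled to a common library total) depending on the mouse. For this floor alone the raw library total was used, without the TMM scaling behind all other CPM values. The deletions could not be checked from whole-gene counts: *Knl1* read 48.7 to 80.0 CPM in ctrl, 50 to 80.4 in cKO and 33.4 to 58.2 in dKO, and *Trp53* 15.6 to 47.0, 24 to 33.3 and 19.8 to 32.3. The 12 markers of cortical excitatory neurons were all detected and summed to 7562 to 9972 CPM over the 15 mice. The 11 interneuron markers summed to 2850 to 3758 CPM in ctrl, 4285 to 6119 in cKO and 3155 to 3886 in dKO, with every cKO mouse above all others. The 6 intermediate progenitor markers, of which *Neurod1* was at 0 in all libraries, summed to 133 to 177 CPM in ctrl, 76.4 to 138 in cKO and 83.6 to 151 in dKO. The ctrl mouse T5 stood apart in oligodendrocyte and myelin markers, at 520.2 CPM against a ctrl median of 59.3.

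*Dcx* encodes doublecortin, a protein that binds and stabilises microtubules in migrating neurons (chrX:143855842-143933311, minus strand). Its level in the 7 ctrl mice ran from 899 to 1113 CPM with a median of 994. The 4 cKO mice read 1252, 1209, 1113 and 1169 CPM, and the 4 dKO mice 884, 989, 909 and 1086. All 4 cKO mice lay above all 4 dKO mice, and the lowest cKO mouse was level with the highest ctrl mouse. The cKO mean of 1186 ± 59.4 (SD, n = 4) stood against 1006 ± 73.2 in ctrl (n = 7), a log2 fold change of 0.22 ± 0.11 (SE) with unadjusted p = 0.0499 (edgeR) and FDR = 1. Against the dKO mean of 967 ± 91.2 (n = 4) the log2 fold change was 0.31 ± 0.14 (95% interval 0.03 to 0.59) with unadjusted p = 0.0311 (edgeR) and FDR = 1. This comparison, dKO with cKO, was the only one of the 27 (9 genes in 3 comparisons) whose groups did not overlap.

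The *Dcx* difference between cKO and ctrl kept its size within batch and litter. In edgeR it was 0.28 in batch 1 alone (unadjusted p = 0.0723) and 0.23 with litter as a covariate (unadjusted p = 0.0681). It was smaller with DESeq2 (0.168), with RLE size factors (0.167) and with a filter on low counts (0.163). All dKO mice were in batch 3, and every cKO mouse except F3 was in batch 1. Genotype and batch therefore largely coincide between cKO and dKO, and they cannot be told apart there. Within batch 3, where F3 was the lone cKO mouse, the difference between cKO and dKO was 0.29, a value that rests on that mouse. Interneurons also express *Dcx*, and the interneuron marker sum given above was higher in the same 4 cKO mice. Its part in the result was not tested. In bulk tissue, fewer cells of a type and less RNA per cell cannot be told apart.

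*Pafah1b1* (chr11:74673949-74724670, minus strand) encodes LIS1, a regulator of dynein, and *Ndel1* (chr11:68821434-68871858, minus strand) encodes a partner that links LIS1 to dynein. The level of *Pafah1b1* in ctrl ran from 170.4 to 233 CPM with a median of 213. Its cKO mice read 220.4, 217, 237 and 210.2 CPM and its dKO mice 212, 169, 220.4 and 216. The groups overlapped, and the log2 fold changes were 0.07 ± 0.11 (SE) for cKO versus ctrl (interval -0.16 to 0.29) and -0.02 ± 0.13 for dKO versus ctrl (interval -0.27 to 0.23).

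*Ndel1* was far more sparsely counted, with as few as 13 reads in a mouse. It ran from 19.8 to 37.8 CPM in ctrl with a median of 28.2, read 30.1, 28.0, 26.7 and 30.0 CPM in cKO, and 31.5, 18.5, 32.3 and 32.2 in dKO. Both mutant groups lay within the ctrl range except the dKO mouse T8, which was lowest for *Pafah1b1* and *Ndel1* alike. The log2 fold changes of *Ndel1* were 0.09 ± 0.16 (SE) for cKO and 0.15 ± 0.20 for dKO, each against ctrl, and -0.03 ± 0.18 for cKO versus dKO. The interval of the second, -0.25 to 0.54, was the wider of those against ctrl.

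*Tuba1a* encodes the alpha tubulin most used by young neurons (chr15:98949837-98953703, minus strand). Its level ran from 248 to 333 CPM in ctrl with a median of 269, and read 272, 278, 285 and 262 CPM in cKO and 282, 243, 266 and 264 in dKO. The groups overlapped throughout. The log2 fold changes were -0.02 ± 0.11 (SE) for cKO versus ctrl, -0.06 ± 0.12 for dKO versus ctrl and 0.08 ± 0.12 for cKO versus dKO.

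The count of *Tuba1a* is uncertain for a reason that the other members do not share. Of the 60-base stretches of its transcripts, 73.7% also occur in transcripts of other genes, 15 genes in all, while at most 0.445% do for any other member. The coding sequences of *Tuba1a* and *Tuba1b* are each 1353 bases long, differ at 23 bases (98.3% identity) and hold an identical run of 281 bases. The paper states that reads without a unique place were discarded, so the level given for *Tuba1a* rests on reads that could be placed uniquely. The other alpha tubulins are open to the same loss of reads.

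*Cdk5* (chr5:24418241-24423530, minus strand) encodes a kinase that phosphorylates migration proteins, doublecortin, NDEL1 and DAB1 among them. It was the most thinly counted member, with 4 reads in each of the ctrl mice T3 and T5. Its level ran from 8.89 to 18.0 CPM in ctrl with a median of 12.8, and read 18.3, 18.0, 15.4 and 14.3 CPM in cKO and 16.6, 16.6, 20.2 and 15.9 in dKO. All 8 mutant mice lay above the ctrl median, and the highest ctrl mice reached into both mutant ranges. The log2 fold changes were 0.27 ± 0.21 (SE) for cKO versus ctrl (interval -0.15 to 0.69) and 0.39 ± 0.25 for dKO versus ctrl (interval -0.11 to 0.88). Their edgeR unadjusted p were 0.198 and 0.12, and at this depth the interval of dKO versus ctrl held both 0 and a difference as large as 0.88. Without the ctrl mouse 6, which was highest among ctrl, the differences from ctrl were 0.45 for cKO (edgeR unadjusted p = 0.0523) and 0.56 for dKO (unadjusted p = 0.0346), with FDR of 0.921 and 1.

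*Cdk5r1* encodes p35, which activates CDK5 in neurons (chr11:80477023-80481184, plus strand). The ctrl mice ran from 206 to 252 CPM with a median of 235, the cKO mice read 240.3, 238, 209 and 287 CPM, and the dKO mice 264, 246, 257 and 271. The lowest dKO mouse lay below the highest ctrl mouse, so the groups overlapped. The difference between dKO and ctrl was 0.18 ± 0.12 (SE, log2) with edgeR unadjusted p = 0.113, the smallest p of any member in that comparison, and FDR = 1.

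*Dab1* encodes the adaptor that is phosphorylated when Reelin binds its receptors. Its gene is the longest of the set, 1125 kb at chr4:103619359-104744844 on the plus strand, of which 0.703% is exonic. The ctrl mice ran from 1166 to 2105 CPM with a median of 1275. The cKO mice read 1568, 1604, 1251 and 1743 CPM, and the dKO mice 1205, 1234, 1518 and 1678. The ctrl range held every mutant mouse, and the log2 fold changes were 0.11 ± 0.16 (SE) for cKO versus ctrl, 0.00 ± 0.16 for dKO versus ctrl and 0.14 ± 0.17 for cKO versus dKO.

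Sorted by litter, the same values fell apart. The 4 mice of litter 1 read 1568 to 2105 CPM and the 3 of litter 4 read 1518 to 1743. The 3 mice of litter 2 read 1166 to 1293 CPM and the 5 of litter 3 read 1202 to 1275. No mouse of litters 1 and 4 overlapped any of litters 2 and 3, and each litter held mice of 2 groups.

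The litter terms were tested over the 15 mice with genotype group in the fit, a test added after the *Dab1* values had been seen. For *Dab1* edgeR's likelihood ratio test gave unadjusted p = 2.71e-06 and FDR = 0.000379, with log2 differences from litter 1 of -0.50 in litter 2, -0.50 in litter 3 and -0.03 in litter 4. The same test called 1127 of 51912 genes (2.17%), or 952 of the 9178 genes with a mean of 10 CPM or more (10.4%), so a litter difference was not particular to *Dab1*. The call was lost without the ctrl mouse 6, the highest in *Dab1*, where the edgeR FDR was 0.129 (unadjusted p = 0.00317) and the difference of litter 3 from litter 1 was -0.34. It stood at FDR = 0.00601 in the mice with at least 1000000 counts, and *Dab1* was the only member called.

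Batch, depth and marker values are given beside the litters. Litters 3 and 4 were both in batch 3, and their ranges did not overlap. In batch 1, the mice of litter 2 (S3 at 1166 CPM and S2 at 1251) lay below all 4 of litter 1. Total counts ran from 574401 to 5301380 in litter 1, from 1829617 to 8800987 in litter 2, from 399832 to 1023405 in litter 3 and from 3519529 to 5396803 in litter 4. Litters 3 and 4 thus also differed in depth without overlap, and litters 1 and 2 overlapped. The excitatory neuron markers summed to 8202 to 9972 CPM in litter 1, 8104 to 8782 in litter 2, 7562 to 9164 in litter 3 and 7698 to 8991 in litter 4, and those ranges overlapped. Some other marker sums did not. Radial glia and cycling progenitor markers summed to 674 to 974 CPM in litter 1 and 1023 to 1264 in litter 2. In the same litters microglial markers summed to 17.7 to 28.2 and 7.6 to 14.2, and endothelial and pericyte markers to 116 to 136 and 96.3 to 109.6. Cajal-Retzius markers summed to 521 to 578 CPM in litter 3 and 617 to 736 in litter 4. By the group means, the Cajal-Retzius sums rest mostly on the single gene *Reln*. The remaining lists overlapped within both pairs of litters. The part of batch, depth or cell makeup in the litter difference was not tested.

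**Figure D2:**
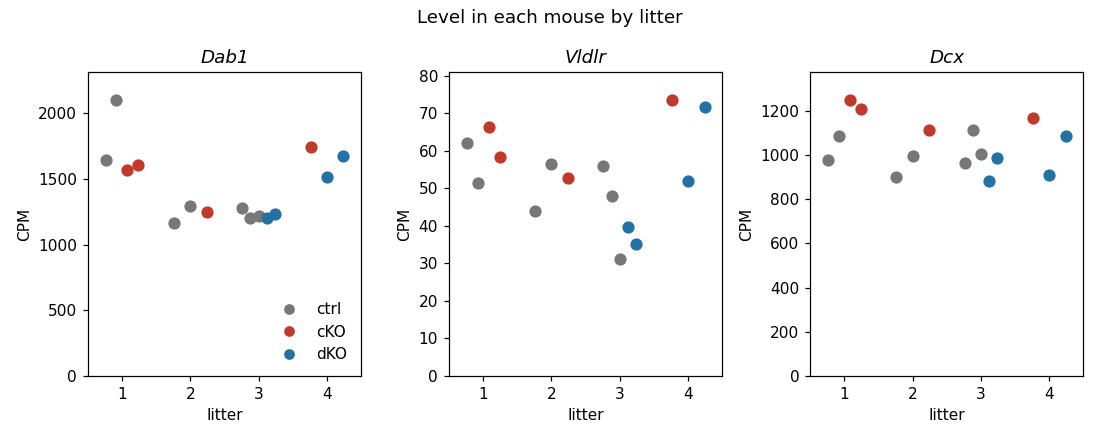
CPM of *Dab1*, *Vldlr* and *Dcx* in each of the 15 mice, with the litter on the x axis and the genotype group as the colour. *Dab1* lies at 1518 CPM or more in litters 1 and 4 and at 1293 CPM or less in litters 2 and 3, whatever the group.

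*Vldlr* (chr19:27216484-27254231, plus strand) encodes one of the Reelin receptors. It ran from 31.1 to 62.2 CPM in ctrl with a median of 51.3, and read 66.2, 58.3, 52.8 and 73.6 CPM in cKO and 39.8, 35.1, 51.9 and 71.6 in dKO. All cKO mice lay above the ctrl median, though below the highest ctrl mouse in 2 of 4. The log2 fold change for cKO versus ctrl was 0.30 ± 0.15 (SE, interval 0.01 to 0.60) with unadjusted p = 0.0426 and FDR = 0.98. In edgeR it was 0.23 in batch 1 alone (unadjusted p = 0.213) and 0.13 with litter as a covariate (unadjusted p = 0.39). For dKO versus ctrl it was 0.06 ± 0.19, and the pair of dKO mice from litter 3 lay below the pair from litter 4. For cKO versus dKO it was 0.28 ± 0.20, and 0.53 without the dKO mouse F7 (edgeR unadjusted p = 0.00889, FDR = 0.908). The litter terms gave edgeR unadjusted p = 0.00318 and FDR = 0.112 for *Vldlr*, short of the threshold.

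*Lrp8* (chr4:107802261-107876840, plus strand) encodes ApoER2, the other Reelin receptor. Its level ran from 305 to 419 CPM in ctrl with a median of 327, and read 345, 355, 311 and 293 CPM in cKO and 297, 269, 332 and 317 in dKO. The groups overlapped. The log2 fold changes against ctrl were -0.11 ± 0.12 (SE) in cKO and -0.19 ± 0.13 in dKO (interval -0.44 to 0.06). Antisense transcripts inside the gene, *Lrp8os1* and *Lrp8os2*, had 4 and 57 counts against 13836 for *Lrp8*.

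**Figure D3:**
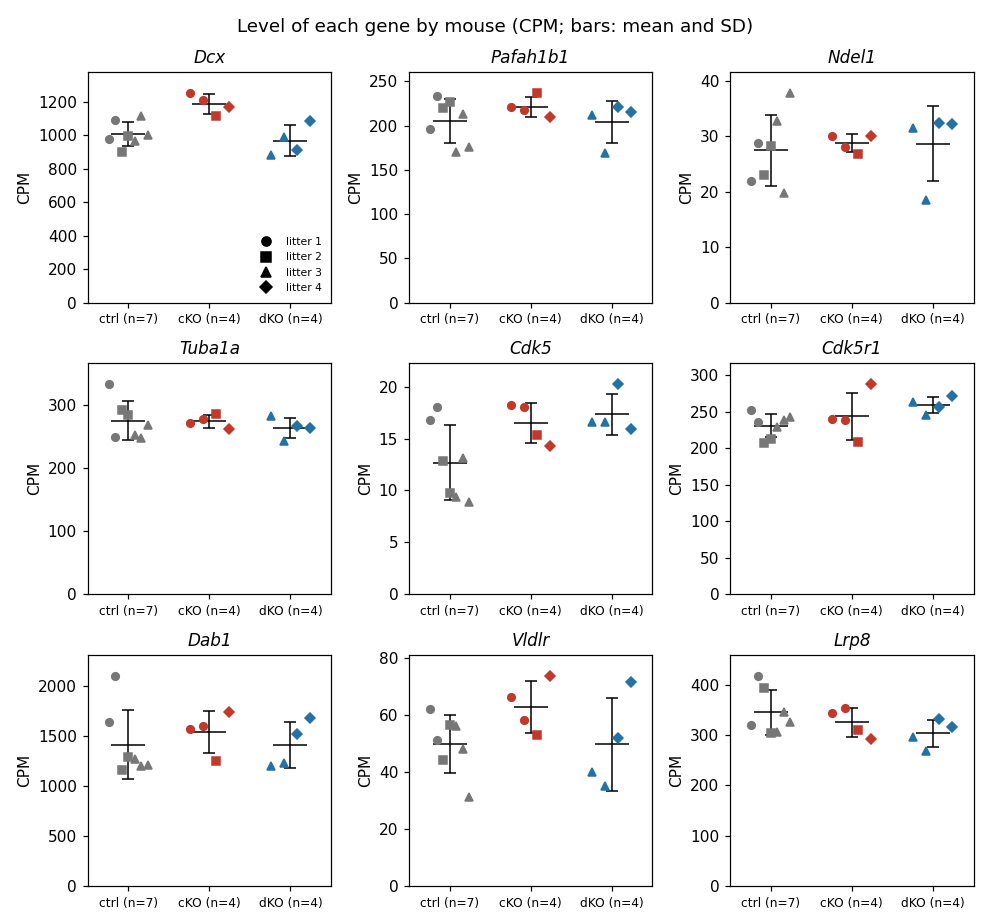
CPM of the 9 genes with reads in each mouse, by genotype group (7 ctrl, 4 cKO, 4 dKO), with the litter as the shape of the point and the mean and SD as bars. *Dcx* is the only gene in which the cKO mice (1113 to 1252 CPM) and the dKO mice (884 to 1086 CPM) do not overlap.

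The members' counts are read here against those of all genes. In cKO versus ctrl, 0 of 9 passed FDR below 0.05 against 83 of 51912 listed genes (0.16%), and 2 of 9 had unadjusted p below 0.05 against 10.7% of the 9178 genes with a mean of 10 CPM or more. In dKO versus ctrl, 0 of 9 passed FDR against 26 genes (0.0501%), and 0 of 9 had p below 0.05 against 5.75%. In cKO versus dKO, 0 of 9 passed FDR against 27 genes (0.052%), and 1 of 9 had p below 0.05 against 4.01%. Groups did not overlap in 0, 0 and 1 of the 9 members in these comparisons, against 1.34%, 0.719% and 4.12% of the 9178 genes.

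The median log2 fold change of the 9 members was 0.09 in cKO versus ctrl, 0.00 in dKO versus ctrl and 0.11 in cKO versus dKO. Over the 9178 genes it was 0.04, 0.01 and 0.06. In the main fits, which held no litter or batch, the 95% intervals of the 27 differences all lay between -0.47 and 0.88. A change of 1 or more on the log2 scale in either direction lay outside each of them. No intervals were computed in the other settings, so this bound does not extend to them. There *Cdk5* in dKO versus ctrl reached 0.58 with litter as a covariate and 0.64 in batch 3 alone. The comparisons share the ctrl, cKO or dKO mice among them, and their values are not independent of one another.

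**Figure D4:**
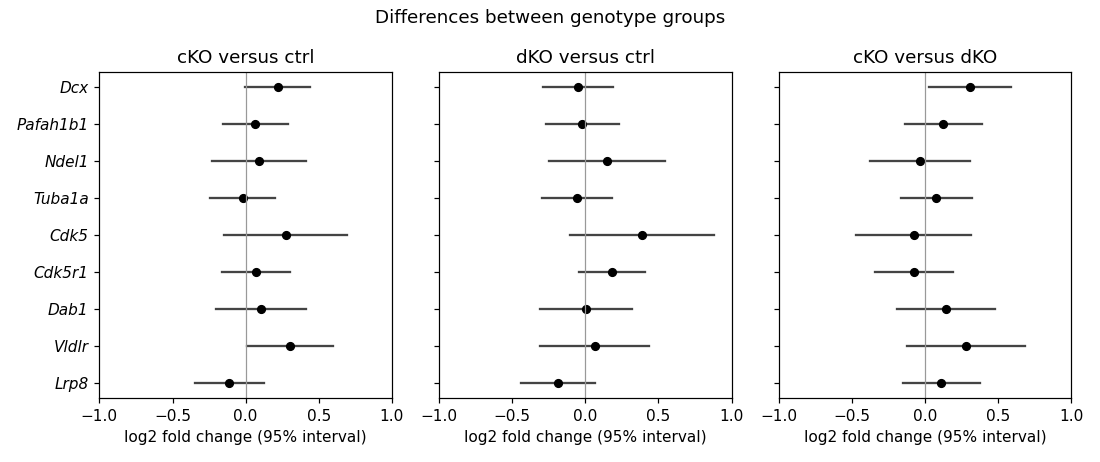
Log2 fold changes of the 9 genes with reads (points) with 95% intervals (lines) in the 3 comparisons, on a common x axis from -1 to 1. The intervals hold 0 except for *Vldlr* in cKO versus ctrl (0.01 to 0.60) and *Dcx* in cKO versus dKO (0.03 to 0.59).

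The order of the members depended on the length by which a count was divided. Per kb of the whole gene, ctrl levels were 71.2 ± 7.91 CPM per kb (SD, n = 7) for *Tuba1a*, 55.45 for *Cdk5r1* and 13.0 for *Dcx*, with no overlap between these neighbours. *Lrp8* at 4.63 and *Pafah1b1* at 4.04 overlapped, and *Cdk5* followed at 2.40. *Vldlr* at 1.32 and *Dab1* at 1.26 overlapped as well, and *Ndel1* was lowest at 0.544. Per kb of exon, *Dab1* came first, at 179 ± 43.5 CPM per kb, ahead of *Tuba1a* at 153 ± 17.0, and *Vldlr* came last at 4.95 ± 1.01. Whether reads in introns were counted was not given in the sources used here, so both orders are shown. Counting over exons alone would not set to 0 a gene such as *Tubb3*, which shares no exon with *Gm20388*, while counting over whole gene spans would. With introns counted, the order per kb of exon divides intronic reads by exon length, most of all for *Dab1*, of which 0.703% is exonic.

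The wider pathway was followed in 5 lists of related genes, 106 genes with counts in all. The lists were chosen with earlier results of these data known, so the shares given next are no independent evidence. In cKO versus ctrl 20 of the 106 genes had unadjusted p below 0.05 (18.9%, against the 10.7% of all genes given above). Of these, 15 were higher and 5 lower, and 1 passed the FDR. In dKO versus ctrl 3 were higher and 6 lower at p below 0.05 (8.49%, against 5.75% of all genes). In cKO versus dKO 4 were higher and 0 lower (3.77%, against 4.01%), with 0 at FDR below 0.05 in either comparison. The gene that passed was *Neurog2*, a proneural factor of cortical progenitors that also drives migration. It fell in cKO from 37.9 ± 8.14 CPM (SD, n = 7) in ctrl to 16.6 ± 8.54 (n = 4), a log2 fold change of -1.19 ± 0.25 (SE) with FDR = 0.00564. In dKO it read 24.9 ± 7.54 CPM, with a log2 fold change from ctrl of -0.64 ± 0.20 and FDR = 0.708. The intermediate progenitor markers, which do not include it, were also low in cKO, and their part in the value was not tested.

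Upstream and downstream of the receptors, the 24 genes of the Reelin pathway list had a median log2 fold change of 0.04 in cKO and 0.01 in dKO against ctrl, with 2 and 1 genes at unadjusted p below 0.05. The shares over the 9178 genes were 10.7% and 5.75%. *Reln*, the ligand, read 517 ± 62.6 CPM in ctrl, 617 ± 32.7 in cKO and 524 ± 41.9 in dKO. Its log2 fold change in cKO was 0.23 ± 0.12 (SE), with edgeR unadjusted p = 0.0467 and FDR = 1. *Pik3r1*, a regulatory subunit of a kinase that acts below DAB1, gave 0.33 ± 0.17 in cKO (FDR = 1), and *Rap1a*, a small GTPase that also acts below DAB1, gave -0.29 ± 0.15 in dKO (FDR = 1).

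Among the 19 lissencephaly genes and dynein partners, 3 had p below 0.05 in cKO versus ctrl, all higher. Over the 9178 genes the share was 10.7%. *Dclk1*, the closest relative of doublecortin, gave 0.33 ± 0.12 (SE, log2) and *Kif2a*, a kinesin that depolymerises microtubules, 0.32 ± 0.12, with FDR of 0.566 and 0.514. In dKO versus ctrl *Nudc*, a chaperone of LIS1, gave 0.66 ± 0.22 (FDR = 0.783) and *Nde1*, the paralogue of NDEL1 that acts in dividing progenitors, gave -0.57 ± 0.25 (FDR = 1).

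Of the 22 tubulins and microtubule proteins, the 19 with a mean of 10 CPM or more had the highest median of the 5 lists in cKO versus ctrl, 0.21, and in dKO versus ctrl, 0.11, where the medians over the 9178 genes were 0.04 and 0.01. *Stmn2*, a neuronal stathmin, gave 0.44 ± 0.15 (SE, log2, FDR = 0.358) and *Tubb4a*, a beta tubulin, 0.58 ± 0.20 (FDR = 0.447). *Tubb4a* gave 0.49 ± 0.18 in dKO versus ctrl (FDR = 0.916).

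Of the 15 *Cdk5* regulators and targets, *Cdk5r2* was at 0 in all libraries, and among the other 14 *Cables1* alone had p below 0.05 in cKO versus ctrl (0.33 ± 0.17, FDR = 1). Of the 27 genes of radial migration and adhesion, 4 were higher and 5 lower at p below 0.05 in cKO versus ctrl. Among the 9178 genes the share at that p, in either direction, was 10.7%. *Flrt2*, a guidance ligand, gave 0.38 ± 0.11 (FDR = 0.183) and *Neurog2* is described above. *Unc5d*, a receptor of the FLRT proteins, gave -0.34 ± 0.12 in cKO (FDR = 0.55) and -0.28 ± 0.13 in dKO (FDR = 1), each against ctrl.

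**Figure D5:**
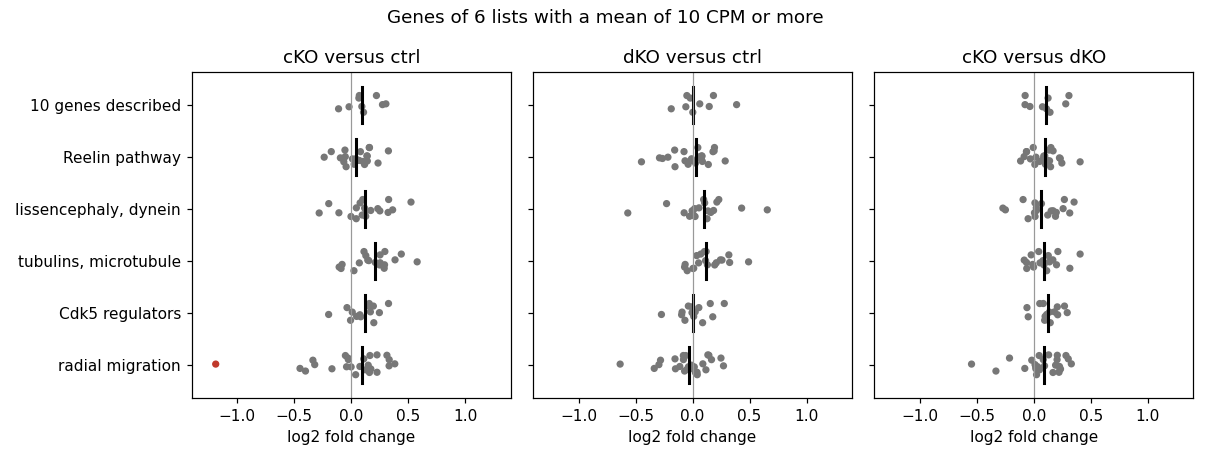
Log2 fold changes in the 3 comparisons for the genes described here and for 5 lists of related genes, each point a gene with a mean of 10 CPM or more and each black line the median of its list. *Neurog2* in cKO versus ctrl, at -1.19, is the only red point, which marks FDR below 0.05.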

How the data were processed

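The authors deposited 1 file of counts per library: whole numbers of deduplicated molecules per Ensembl gene, not normalised. The submitters' processing notes name bcl2fastq 2.17, cutadapt 1.13, STAR 2.5.2a, UMI-tools 0.5.3, HTSeq 0.6.1p1 (in its intersection-nonempty mode, which gives a read that fits several genes to none of them) and edgeR 3.18.1. The feature type and strand setting of the counting were not given in the sources used here. Of the 51912 listed genes, 51719 matched GENCODE vM21 (GRCm38), from which symbols, positions and transcripts were taken, and 5 summary lines per library were left out. The members and gene lists were chosen with earlier results of these data known.

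The libraries S2 and S2b of 1 mouse were summed, which gave 15 mice, each a separate animal. Each pair of groups was fitted on its own in edgeR 4.0.16 (R 4.3.3) with TMM scaling, glmFit and the likelihood ratio test, with Benjamini-Hochberg adjustment over all listed genes. SE came from the fit, and 95% intervals are the value ± 1.96 SE. CPM used TMM-scaled totals, except for the floors, and the background of single genes those with a mean of 10 CPM or more. Alternatives were the quasi-likelihood F test, DESeq2 1.42.0, other size factors, a filter on low counts, a joint fit, litter as a covariate, wild-type ctrl alone, single batches, library S2 alone and leaving out each mouse. Litter 3 alone, mice with at least 1000000 counts and the test of litter were added after seeing the data. From each related list, the text names up to 2 genes per comparison with the smallest p, and every member. The fits were tested on simulated data with a single dispersion (0.05) and no litter or batch differences. Such data cannot show how the fits behave where litters differ. The floors cover counting error only, while the SE and intervals also take in the spread between mice through the fitted dispersion. A stretch of coding sequence is not reported here.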

Additional observations from a re-analysis of the deposited data

Results flagged for a closer look

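Within the genotype groups, 27 sets of values (9 genes in 3 groups) were searched for a mouse far from the others by Dixon's gap, which chance exceeds in about 1 in 20 sets. The search found 3, all in dKO. Mouse T8 read 169 CPM for *Pafah1b1*, with the nearest dKO mouse at 212, and 18.5 CPM for *Ndel1* (20 counts), with the nearest at 31.5. Mouse F1 read 20.2 CPM for *Cdk5* (67 counts), with the nearest at 16.6. Leaving out T8 or F1 brought no member past the FDR in any comparison.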

How the results depend on the processing

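No member passed FDR below 0.05 in any of 531 alternative values (smallest FDR 0.315, smallest unadjusted p 0.00277, values from -0.30 to 0.64 on the log2 scale), and 47 of them changed sign. Mice of different groups share no replicate number, and the litter they share entered as a covariate.

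The number of all genes called depended on the setting. For cKO versus ctrl, 83 genes became 352 with the quasi-likelihood F test, 144 with DESeq2, 138 with the filter on low counts, 49 in the joint fit, 16 with wild-type ctrl alone, 13 in batch 1 and 52 in mice with at least 1000000 counts. For dKO versus ctrl, 26 became 113 with the quasi-likelihood F test, 3 with DESeq2, 14 with the filter and in the joint fit, 4 with litter as a covariate, 17 with wild-type ctrl alone and 3 in litter 3. For cKO versus dKO, 27 became 184 with the quasi-likelihood F test, 11 with DESeq2, 14 with the filter and in the joint fit, 1 in batch 3 and 62 in mice with at least 1000000 counts. Leaving out 1 mouse gave 17 (without cKO 5) to 373 (without cKO S2) for cKO versus ctrl, 17 (without dKO F7) to 59 (without dKO T8) for dKO versus ctrl, and 6 (without cKO 7) to 179 (without dKO F1) for cKO versus dKO. The litter test gave 622 (without cKO S2) to 1304 (without dKO F1) against 1127 with all 15 mice.

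The sign changes among the log2 fold changes were these. With litter as a covariate, cKO versus ctrl gave -0.025 for *Cdk5r1* and -0.15 for *Dab1*, dKO versus ctrl gave 0.002 for *Pafah1b1*, -0.223 for *Ndel1*, 0.039 for *Tuba1a* and -0.291 for *Vldlr*, and cKO versus dKO gave -0.035 for *Pafah1b1*, -0.001 for *Tuba1a*, 0.139 for *Cdk5r1* and -0.128 for *Lrp8*. Within batch 1, *Dab1* gave -0.142 for cKO versus ctrl. Within batch 3, dKO versus ctrl gave 0.109 for *Pafah1b1* and 0.029 for *Tuba1a*, and cKO versus dKO gave 0.048 for *Ndel1*, 0.165 for *Cdk5r1* and -0.037 for *Lrp8*. Within litter 3, dKO versus ctrl gave 0.006 for *Pafah1b1*, -0.223 for *Ndel1*, 0.045 for *Tuba1a* and -0.278 for *Vldlr*. *Dab1* in dKO versus ctrl gave -0.019 with DESeq2, -0.02 with RLE size factors, -0.018 with the filter, -0.005 in the joint fit and -0.086 with wild-type ctrl alone, where *Vldlr* gave -0.023. *Tuba1a* in cKO versus ctrl gave 0.006 with library S2 alone and 0.038 in mice with at least 1000000 counts, where *Pafah1b1* gave -0.006. The cause was not tested.

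With 1 mouse left out, the members that changed sign ran over these ranges. For cKO versus ctrl they were *Tuba1a* -0.044 to 0.047 and *Cdk5r1* -0.017 to 0.141. For dKO versus ctrl they were *Pafah1b1* -0.07 to 0.05, *Dab1* -0.09 to 0.127 and *Vldlr* -0.181 to 0.195. For cKO versus dKO they were *Ndel1* -0.153 to 0.049 and *Cdk5* -0.155 to 0.022. The litter difference of *Dab1* (litter 3 minus litter 1) ran from -0.55 to -0.337.

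The unadjusted p of *Dcx* in cKO versus ctrl was 0.0126 with DESeq2 (FDR 0.315) and 0.136 with RLE size factors. The shallow ctrl mice limit *Cdk5*, *Ndel1* and *Vldlr*, which had as few as 4, 13 and 14 reads.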

Other observations

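The gene whose log2 CPM followed each member most closely over the 15 mice, among genes with a mean of 50 CPM or more, is given as a description, since the points share litters, batches and depth and the best of about 4022 candidates is high by construction. For *Vldlr* it was *Jakmip2* (Pearson r = 0.965), for *Dab1* *Clstn2* (0.929), for *Pafah1b1* *Ccdc50* (0.906) and for *Dcx* *Il1rapl1* (0.903). For *Cdk5* it was *Dgkd* (0.864), for *Cdk5r1* *Thra* (0.847), for *Tuba1a* *Xpo7* (0.835), for *Ndel1* *Tecpr2* (0.811) and for *Lrp8* *Celsr3* (0.774). Among the members themselves the closest pair was *Dab1* with *Vldlr* (r = 0.629, n = 15) and the most opposed *Cdk5r1* with *Lrp8* (r = -0.35).

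The 2 markers at 0 in all libraries besides *Tubb3* and *Cdk5r2* were *Sox2*, a defining gene of radial glia, and *Neurod1*. As for *Tubb3*, a 0 in these counts need not mean an absent transcript, and the authors stained SOX2 protein in cortical progenitors at E15.5. The Cajal-Retzius markers, which include *Reln*, summed to 512 to 733 CPM in ctrl, 649 to 736 in cKO and 545 to 635 in dKO. *Reln* alone had means of 517, 617 and 524 CPM in these groups, so the sums rest mostly on that gene.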
